A study of Mus musculus with 45 samples.

Results

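RNA-seq counts of single mouse oocytes were compared between aged oocytes cultured inside aged somatic cells (AA) and young oocytes collected without culture (in vivo young). The members were taken by their titles: 12 AA libraries (S268 to S279) and 8 in vivo young libraries (S17, S18 and 6 numbered between S71 and S77), so 20 of the 45 libraries of the series. An AA oocyte had been moved into an aged follicle from which the resident oocyte had been removed, and this reconstituted chimeric follicle was then cultured. An in vivo young oocyte had neither been moved nor cultured. The age of the oocyte, the age of the somatic cells, the reconstitution and the culture therefore all differ between the 2 groups and cannot be told apart. The library numbers of the 2 groups also lie in separate ranges. A difference in preparation or sequencing run, if there was one, cannot be told apart from the other differences either. The other 25 libraries are given below as levels beside these. They are 6 of AY (the oocyte aged and its new follicle young), 11 of YY (both young) and 8 of in vitro young (a cultured young oocyte that had not been moved). Strain, genotype, age in months, meiotic stage and the animals of origin were not found in the labels. The p-values therefore cover the spread among these single oocytes alone, which can be technical, and how many mice they represent is unknown here.

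A full-grown mouse oocyte stores mRNA and protein made during its growth and then largely stops transcription, so the levels measured in it reflect both what was made and what was degraded. Granulosa cells around it feed it through gap junctions and regulate its meiotic arrest. With age, oocytes are known to lose chromosome cohesion and to divide their chromosomes with more errors.

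Total counts per library ranged from 503354 to 1335807 in AA and from 418703 to 2201980 in in vivo young. All 12 oocyte markers on the list, among them Zp1, Zp2, Zp3, Gdf9, Bmp15 and Nlrp5, had counts in every library of both groups. After thinning every library to 418703 counts, 12680 ± 188 genes were detected in AA and 12670 ± 142 in in vivo young (SD, n = 12 and 8; two-sided exact permutation test, p = 0.881), and the difference took the other sign, 109 fewer genes in AA, when at least 5 reads were asked for (p = 0.0469). Levels are CPM, counts relative to the library total after scaling by TMM factors over all 45 libraries. They describe shares of the RNA sequenced, not its amount per oocyte.

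Against in vivo young, AA had higher levels of the ubiquitin-conjugating enzyme gene Cdc34b, the mitochondrial peptidase gene Mipep, the tRNA-histidine guanylyltransferase gene Thg1l and the imprinted gene Nap1l5. AA had lower levels of Padi6, needed for the cytoplasmic lattices of the oocyte, of the maintenance DNA methyltransferase Dnmt1, of the clathrin heavy chain Cltc, of the kinase Mapk3 and of the kinetochore protein Cenpf. By the quasi-likelihood test of edgeR, adjusted after Benjamini and Hochberg, 1169 of 7573 tested genes were called at an adjusted p under 0.05, which is 15.4%. Of these, 461 (6.09%) were higher and 708 (9.35%) lower in AA. Changes of at least 2-fold were few, 39 higher and 83 lower. For 75 genes (0.99% of those tested) the 12 AA and 8 in vivo young libraries did not overlap, with AA above for 15 and below for 60. When libraries that share the pattern of 11 all-or-nothing genes described under the processing were summed, leaving 2 AA and 3 in vivo young sums, 43 genes were called, 7 higher and 36 lower. Against the in vivo young libraries S17 and S18 alone 489 were called, and against the other 6 alone 1098.

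**Figure D1:**
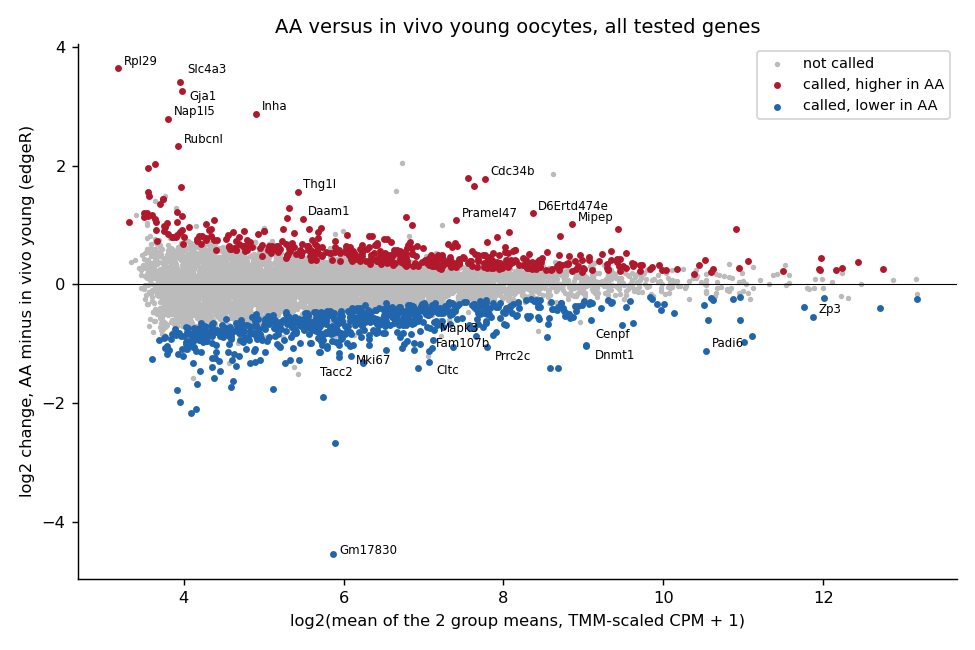
Each point is 1 of the 7573 tested genes. The x axis is the log2 of the mean of both group means in TMM-scaled CPM plus 1, and the y axis is the log2 change from edgeR, AA minus in vivo young. The 461 called genes higher in AA are red and the 708 lower are blue, and genes named in the text are labelled.

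Among the genes that rose, Cdc34b on chromosome 11 (94632608 to 94633860, mm39) had a lowest, median and highest level of 267.5, 341 and 463.4 CPM in AA, against 77, 93.9 and 123.6 CPM in in vivo young. All 12 AA libraries were above all 8 in vivo young libraries. The change was 1.78 ± 0.11 (log2, SE; adjusted p = 1.34e-14, edgeR). Cdc34b is a near copy of Cdc34, so its counts are uncertain.

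Mipep, on chromosome 14, had 488.4, 575.9 and 782.3 CPM in AA, against 188.4, 287.3 and 443.2 CPM in in vivo young, again without overlap, and rose by 1.02 ± 0.15. D6Ertd474e, a non-coding gene of chromosome 6, had 379.6, 409.8 and 684.9 CPM in AA, against 138.4, 201.6 and 235.5 CPM in in vivo young, without overlap, and rose by 1.20 ± 0.12. Thg1l had 41.9, 58.5 and 92.1 CPM in AA, against 9.75, 16.6 and 51.1 CPM in in vivo young, and rose by 1.56 ± 0.23. Its groups overlapped through 1 in vivo young library.

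The largest fold changes of the leading genes belonged to genes that were low in in vivo young. Rpl29, a ribosomal protein of the large subunit, had 6.80, 14.6 and 23.7 CPM in AA, against 0, 0.904 and 4.65 CPM in in vivo young, and rose by 3.65 ± 0.42. Slc4a3, an anion exchanger, had 8.77, 28.1 and 43.5 CPM in AA, against 0, 1.13 and 9.29 CPM in in vivo young, and rose by 3.42 ± 0.45. Nap1l5, an imprinted nucleosome assembly gene expressed from the paternal allele, had 7.74, 21.4 and 36.3 CPM in AA, against 0, 1.68 and 23.2 CPM in in vivo young, and rose by 2.79 ± 0.50. In vivo young replicate 5 held the highest of these 8 values, far above the other 7, and without it the change was 3.62. The same library held the highest in vivo young level of the granulosa marker Inha, at 44.15 CPM. The part of granulosa RNA in the Nap1l5 level was not tested. The counts of Rpl29, which has processed copies in the genome, are uncertain. Rubcnl, an autophagy gene, rose by 2.33 ± 0.36, the formin Daam1 by 1.11 ± 0.21 and the PRAME-family gene Pramel47, whose counts are uncertain because of its near copies, by 1.08 ± 0.20.

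Of the leading genes that fell, Padi6 on chromosome 4 (140454666 to 140469955) had 555.2, 932.7 and 1327 CPM in AA, against 1729, 1982 and 2539 CPM in in vivo young. Every AA library was below every in vivo young library, and the log2 change was -1.12 ± 0.12 (adjusted p = 5.41e-07, edgeR). Dnmt1 on chromosome 9 (20818505 to 20871185) had 252.3, 311.4 and 466.7 CPM in AA, against 513.5, 691.9 and 988.7 CPM in in vivo young, a change of -1.04 ± 0.12 without overlap. Mapk3, which encodes ERK1 of the kinase cascade that keeps mature oocytes in metaphase, had 51.7, 93.2 and 121.1 CPM in AA, against 149.2, 180.7 and 245.6 CPM in in vivo young, a change of -1.07 ± 0.13. The groups did not overlap for Mapk3 either.

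The other leading genes that fell have varied roles. Cltc, which also sits on the spindle, had 41.9, 77.1 and 108.9 CPM in AA, against 127.2, 197.9 and 234.6 CPM in in vivo young, a change of -1.30 ± 0.13. Mki67, which coats chromosomes in division, had 55.2, 67.8 and 87.9 CPM in AA, against 106.8, 142 and 176.7 CPM in in vivo young, a change of -1.07 ± 0.11. Cenpf had 209.4, 320.5 and 542.2 CPM in AA, against 543.7, 707.3 and 926.8 CPM in in vivo young, and its highest AA library lay just under its lowest in vivo young library. The microtubule regulator Tacc2 (-1.31 ± 0.15), Fam107b (-1.12 ± 0.12) and Prrc2c (-1.05 ± 0.12) were also lower in AA without overlap. Gm17830, a predicted non-coding RNA gene chosen after its values were seen, had the smallest p of all genes, with 1.396, 4.90 and 7.76 CPM in AA, against 74.7, 108.3 and 150.2 CPM in in vivo young, and a change of -4.56 ± 0.20. It is also 1 of the 11 genes picked for a wide gap between a low and a high set of libraries, so its gap is no independent result. All 20 leading genes were chosen by p and size of change in these libraries, and their separation is a description.

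**Figure D2:**
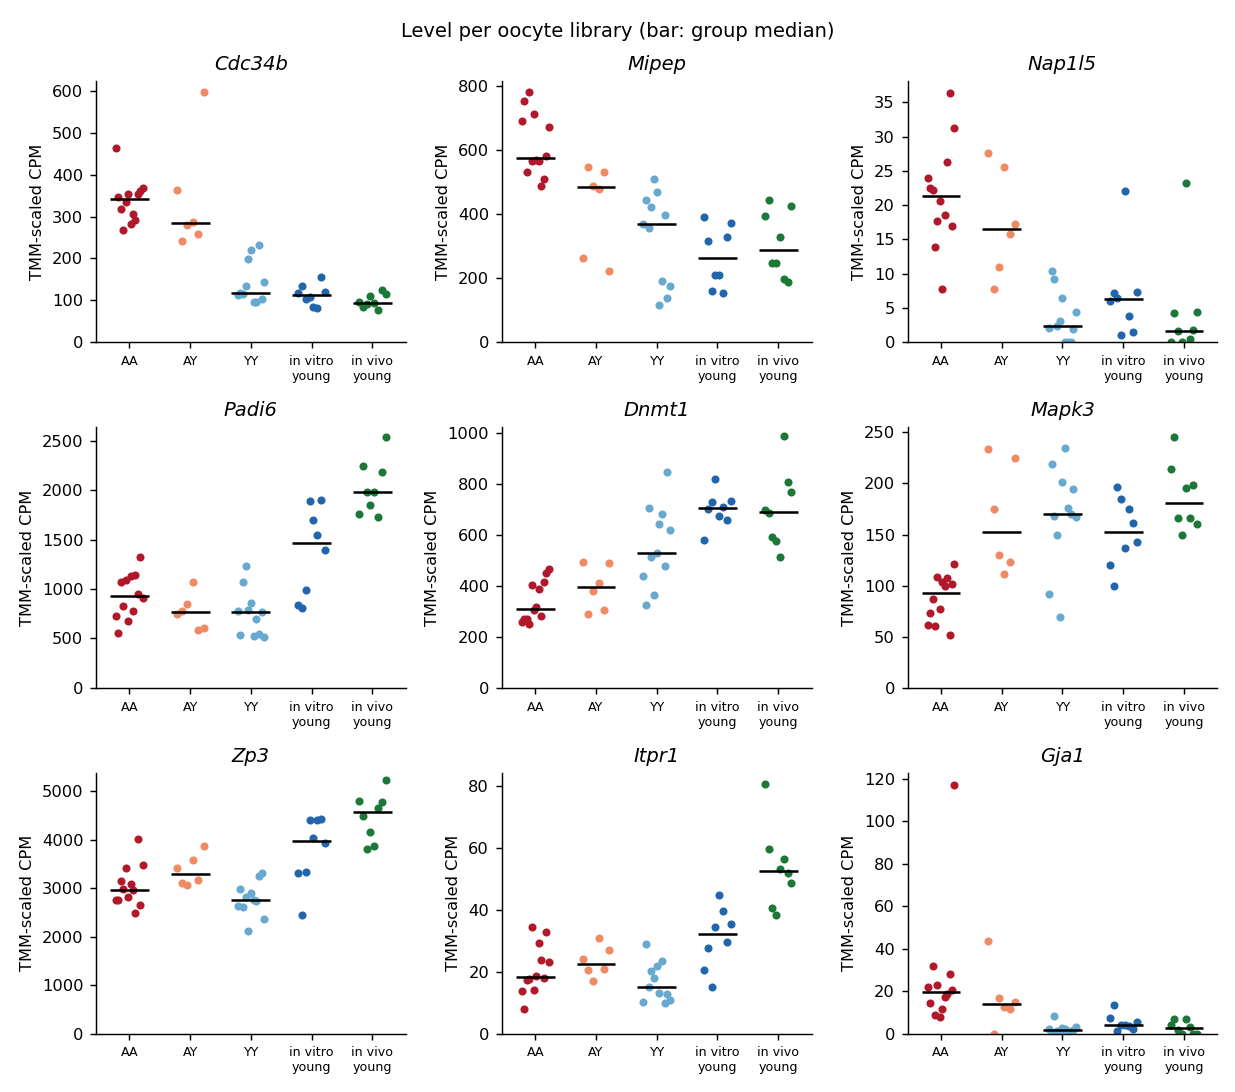
Level of 9 genes in each oocyte library, in TMM-scaled CPM, with AA leftmost and in vivo young rightmost and a bar at each group median. AA lies apart from in vivo young for Cdc34b, Mipep, Padi6, Dnmt1, Mapk3, Itpr1 and Gja1, and the other groups take different places for different genes.

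The other groups show where young oocytes with part of the handling stood. In 1 fit of all 45 libraries AA was also compared with YY and with in vitro young. These comparisons share the AA libraries with the main one, so their values are only set side by side. Median levels of Cdc34b were 341 CPM in AA, 284.1 in AY, 117.6 in YY, 112.9 in in vitro young and 93.9 in in vivo young. The 3 young groups overlapped one another and lay below both groups of aged oocytes. The log2 change of AA was 1.23 ± 0.14 against YY and 1.604 ± 0.16 against in vitro young. Thg1l had medians of 58.5 CPM in AA, 21.6 in AY, 22.2 in YY, 17.5 in in vitro young and 16.6 in in vivo young, and the last 4 overlapped. Dnmt1 had medians of 311.4 CPM in AA, 395.1 in AY, 531.6 in YY, 706.4 in in vitro young and 691.9 in in vivo young, with each neighbour in that order overlapping the next. Its change in AA was -0.73 ± 0.13 against YY and -1.02 ± 0.14 against in vitro young.

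Padi6 had another order, with medians of 932.7 CPM in AA, 766 in AY, 771.9 in YY, 1467 in in vitro young and 1982 in in vivo young. The 3 groups from reconstituted follicles overlapped, and AA was at 0.29 ± 0.16 against YY (adjusted p = 0.173, edgeR) and at -0.54 ± 0.17 against in vitro young (adjusted p = 0.0213). Cltc, Cenpf and Prrc2c likewise did not pass against YY, at 0.29 ± 0.15, 0.16 ± 0.13 and -0.17 ± 0.13, while all 3 were lower against in vitro young. Mki67 (-0.47 ± 0.11) and Mapk3 (-0.93 ± 0.16) were lower in AA against YY too. Fam107b (-0.28 ± 0.14), Tacc2 (-0.39 ± 0.16) and D6Ertd474e (0.62 ± 0.25) did not pass against YY but passed against in vitro young. Daam1 was among the named genes that passed neither against YY nor against in vitro young. Others of these, described below, were Msmo1, Psmd7, Itpr1, Kit, Ogdh, Birc6 and Smc4. A p that misses the threshold does not show that levels are alike.

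Of 11 tested genes of the egg coat and of sperm binding 5 fell and none rose, with a list median of -0.35, beside a median of -0.002 over all tested genes and the 9.35% of all genes that fell. Zp3, a zona pellucida protein, had 2496, 2971 and 4008 CPM in AA, against 3807, 4571 and 5224 CPM in in vivo young, a change of -0.54 ± 0.08. Zp2, whose cleavage blocks further sperm, had 932.5, 1154 and 1529 CPM in AA, against 1506, 1802 and 2315 CPM in in vivo young, a change of -0.60 ± 0.09. Both genes overlapped only at the edge of the groups. Zp1, which crosslinks zona filaments, fell by 0.35 on the log2 scale. Astl, the protease ovastacin that cleaves Zp2 (-0.69 ± 0.20), and Oosp2, an oocyte-secreted protein (-0.50 ± 0.15), were chosen after their values were seen. Umodl1 (0.04 ± 0.08), Oosp1 (0.09 ± 0.10) and Oosp3 (-0.02 ± 0.10), also chosen so, were not called, so secreted oocyte proteins did not all move. The list had 3 members lower without in vivo young replicate 2, against S71 to S77 alone and with the pattern as a random block. In the fit of all 45 libraries Zp1 was not called against in vivo young. Against YY that fit had 4 of 12 list members higher and 1 lower, where 12% of all genes were higher and 14% lower. Zp2 stood at 0.57 ± 0.10, Zp1 at 0.51 ± 0.13 and Zp3 at 0.13 ± 0.08 against YY. Against in vitro young 1 member was higher and 4 lower, where the shares were 6.84% and 9.17%.

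Zona genes are switched on together in growing oocytes by the transcription factor FIGLA, which binds E-boxes (CANNTG, read the same on both strands). Of the 5 members that fell, 3 have a promoter in the RefSeq table (GRCm38.p6), and they are shown because they moved together in the data. The 250 bases before each start are printed 5′ to 3′ on the strand of the gene, with E-boxes in capitals. They lie at chr5:135979855-135980104 (+) for Zp3, chr2:127338389-127338638 (+) for Astl, the first of 2 starts, and chr19:11660560-11660809 (-) for Oosp2.
Zp3: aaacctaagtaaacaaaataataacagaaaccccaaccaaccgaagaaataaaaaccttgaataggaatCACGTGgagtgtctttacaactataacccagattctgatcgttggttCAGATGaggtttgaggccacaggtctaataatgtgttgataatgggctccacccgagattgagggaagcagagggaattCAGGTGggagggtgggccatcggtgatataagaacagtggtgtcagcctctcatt
Astl: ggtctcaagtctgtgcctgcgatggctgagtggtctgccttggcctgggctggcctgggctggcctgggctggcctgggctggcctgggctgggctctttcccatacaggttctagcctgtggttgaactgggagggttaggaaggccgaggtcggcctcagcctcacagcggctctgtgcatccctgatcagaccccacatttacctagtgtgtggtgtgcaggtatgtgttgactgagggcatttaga
Oosp2: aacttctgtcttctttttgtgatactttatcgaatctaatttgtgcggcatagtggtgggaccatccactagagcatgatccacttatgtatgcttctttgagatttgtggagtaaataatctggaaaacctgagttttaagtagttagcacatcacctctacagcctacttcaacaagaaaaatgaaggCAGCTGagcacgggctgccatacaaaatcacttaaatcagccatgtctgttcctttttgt
The Zp3 window holds 3 E-boxes, which begin 181, 134 and 55 bases before the start, the Oosp2 window holds 1, at 60 bases, and the Astl window holds none. Of all 32851 windows of this length in the table, 66.2% hold at least 1. Figla itself had 9.495, 20.6 and 37.3 CPM in AA, against 9.75, 20.8 and 43.0 CPM in in vivo young, and was not called.

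In the subcortical maternal complex and the oocyte NLRP family, which support the first cleavages, 4 of 15 tested members fell in AA and none rose (median -0.25). Of all genes 9.35% fell and 6.09% rose. Beside Padi6, Nlrp5 (MATER) had 720.5, 1393 and 2478 CPM in AA, against 1186, 2872 and 4606 CPM in in vivo young, a change of -0.97 ± 0.24 with wide overlap. Nlrp14 (-0.87 ± 0.15) and Nlrp9c (-0.48 ± 0.09) were chosen after their values were seen. Against YY the same list had 11 of 15 members higher and none lower, where 12% of all genes were higher and 14% lower, and against in vitro young it had 1 higher and 1 lower, where the shares were 6.84% and 9.17%. Nlrp5 had medians of 1393 CPM in AA, 619.5 in AY, 421.4 in YY, 1754 in in vitro young and 2872 in in vivo young. AA thus lay between in vivo young and YY for this gene, with overlap on both sides, and its change was 1.38 ± 0.28 against YY. NLRP genes are similar to one another, so reads may be split among them, and without in vivo young replicate 6 the list had 8 lower members.

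Of the growth and transcription factors of the oocyte, 5 of 19 fell, beside 9.35% of all genes, and none rose. The stem cell factor receptor Kit had 66.9, 97.3 and 143.8 CPM in AA, against 133.7, 168.8 and 186.7 CPM in in vivo young, a change of -0.72 ± 0.12. Gdf9 and Bmp15, the growth factors by which the oocyte instructs granulosa cells, changed by -0.39 ± 0.11 and -0.37 ± 0.09. Against S71 to S77 alone neither Gdf9 nor Bmp15 was called. The transcription factor Nobox stood at 0.26 ± 0.11 and was not called.

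Of 26 regulators of the translation of stored mRNA 10 fell and 1 rose (median -0.30), beside 9.35% and 6.09% of all genes. Eif4g3, a scaffold of translation initiation needed for meiosis in mouse spermatocytes, had 34.2, 52.8 and 68.0 CPM in AA, against 66.4, 92.4 and 118.5 CPM in in vivo young, a change of -0.80 ± 0.13. Dazl, an RNA-binding activator of translation, fell by 0.31 on the log2 scale. The repressor Patl2 was the member that rose, with 88.7, 116.2 and 155.1 CPM in AA, against 41.1, 69.4 and 100.1 CPM in in vivo young, a change of 0.77 ± 0.14. The translation repressor Eif4enif1 (-0.53 ± 0.10), the poly(A)-binding protein Pabpc1l (-0.57 ± 0.12) and the mRNA-packaging protein Ybx1 (-1.05 ± 0.25), chosen after their values were seen, fell as well. The central regulator Cpeb1, also chosen so, stood at 0.006 ± 0.14. After correction for transcript length and GC content 10 members were still lower, where 8.42% of all genes were lower, and 3 were higher, where 5.94% were higher.

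Of 31 histone-modifying enzymes 14 fell and 2 rose in AA (median -0.33), beside 9.35% and 6.09% of all genes. The methyltransferase of histone H3 lysine 4 Kmt2c had 51.7, 107.7 and 160.6 CPM in AA, against 182.3, 222.5 and 265 CPM in in vivo young, a change of -1.05 ± 0.13 without overlap. The deacetylase Sirt6 was higher, at 0.43 ± 0.13. Among DNA methylation genes, 3 of 12 fell and 1 rose. Beside Dnmt1, its recruiter Uhrf1, chosen after its values were seen, changed by -0.87 ± 0.12, and Tet3, an oxidase of 5-methylcytosine chosen likewise, by -0.44 ± 0.10. Zfp57, which protects imprints, rose by 0.22 ± 0.06. The median transcript of the histone list is 4373 bases long. After correction for transcript length and GC content 8 of its members were lower and 1 higher. In that fit 8.42% of all genes were lower and 5.94% higher, and Tet3, at -0.15, was not called. The histone list had 9 lower members against S71 to S77 alone and 9 with a random block for the pattern. Its higher members numbered 0 to 2 without 1 library, with a different count in 14 of 20 omissions.

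The insulin, PI3K and mTOR pathway, which governs oocyte growth and follicle activation, had 6 of 22 members lower and none higher (median -0.28). Of all genes 9.35% were lower and 6.09% higher. Mtor had 7.99, 18.9 and 25.3 CPM in AA, against 26.0, 41.6 and 54.3 CPM in in vivo young, a change of -1.10 ± 0.19. The highest AA library was below the lowest in vivo young library. Rictor of mTOR complex 2 (-0.76 ± 0.14) and the follicle-activation brake Foxo3 (-0.50 ± 0.12) were chosen after their values were seen. With a median length of 7137 bases this list holds long transcripts, and after correction for length and GC content 2 members were lower and 1 higher. In that fit 8.42% of all genes were lower and 5.94% higher, shares near those of this list. Foxo3, at -0.32, was not called there. Itpr1, the calcium release channel used at fertilisation, had 7.95, 18.4 and 34.6 CPM in AA, against 38.3, 52.6 and 80.8 CPM in in vivo young, a change of -1.33 ± 0.19, and was the 1 member of 14 zinc and calcium genes to be called.

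**Figure D3:**
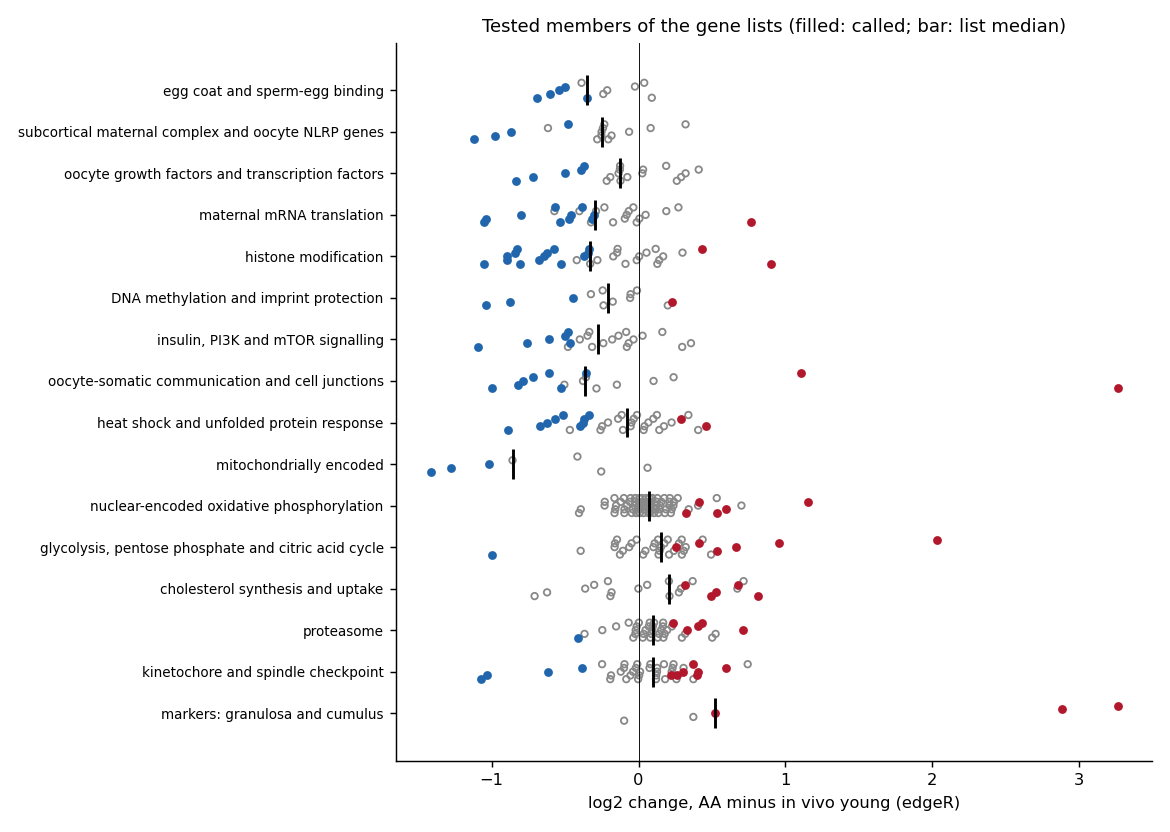
The log2 change from edgeR, AA minus in vivo young, of the tested members of 15 gene lists and of the granulosa and cumulus markers, 1 row per list. Filled points were called, red higher and blue lower in AA, open points were not, and the bar is the median of the list. Lists of the egg coat, translation, histone modification, mTOR and mitochondrially encoded genes lie mostly left of 0. Most members of the proteasome, glycolysis and nuclear-encoded oxidative phosphorylation lists lie right of 0, though few of them were called.

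Changes in the chromosome machinery went both ways. Of 40 kinetochore and checkpoint genes 7 rose and 4 fell, beside 6.09% and 9.35% of all genes. After correction for length and GC content 4 rose and 3 fell, beside 5.94% and 8.42% of all genes. Cdca8 (borealin) of the chromosomal passenger complex had 483.2, 542.2 and 593.3 CPM in AA, against 371.8, 416.7 and 451.1 CPM in in vivo young, a rise of 0.40 ± 0.07 without overlap. Cenpf, given above, fell, and without in vivo young replicate 6 the number that rose was 4. Among 18 cohesin, shugoshin and separase genes 1 rose and 3 fell. Sgo2a, which protects centromeric cohesin, had 55.9, 68.0 and 97.6 CPM in AA, against 27.4, 46.5 and 57.9 CPM in in vivo young, and rose by 0.74 ± 0.16. Separase (Espl1), which cleaves cohesin, had 20.6, 31.1 and 48.1 CPM in AA, against 29.2, 52.1 and 86.4 CPM in in vivo young, a change of -0.77 ± 0.18. Mau2 (-0.58 ± 0.19) and Pttg1 (-0.23 ± 0.08) of that list, chosen after their values were seen, also fell. The lower count of that list was 1 with a random block for the pattern. Of 7 condensin genes 1 rose and 3 fell. The condensin subunit Ncapg rose by 0.51 ± 0.11 and its partner Smc4 fell by 0.34 on the log2 scale. Ncapd3 (-0.52 ± 0.14) and Smc2 (-0.58 ± 0.19), chosen after their values were seen, fell as well. Of 35 genes of the acentrosomal spindle 5 fell and 1 rose, led by Cltc and Daam1.

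In the switch that drives and ends meiotic division, 4 of 32 genes rose and 5 fell, beside 6.09% and 9.35% of all genes. After correction for length and GC content 2 rose, where 5.94% of all genes rose. With a random block for the pattern 2 rose as well. Mastl, the Greatwall kinase, had 428.7, 604.6 and 667.9 CPM in AA, against 216.8, 441.4 and 505.1 CPM in in vivo young, a rise of 0.50 ± 0.12. The phosphatase Cdc25b, which triggers the resumption of meiosis, had 7.71, 11.5 and 22.3 CPM in AA, against 22.0, 25.5 and 39.7 CPM in in vivo young, a change of -1.13 ± 0.21, with an overlap of only the edge libraries. In the cAMP pathway of meiotic arrest, 3 of 9 members fell and 1 rose. The regulatory subunit Prkar1a rose by 0.45 ± 0.11, and the anchoring protein Akap1 changed by -0.84 ± 0.17.

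In glycolysis, the pentose phosphate route and the citric acid cycle 6 of 35 rose and 1 fell, beside the 6.09% of all genes that rose. Tpi1, a glycolytic isomerase, had 53.1, 64.5 and 94.6 CPM in AA, against 24.2, 35.6 and 48.9 CPM in in vivo young, a rise of 0.96 ± 0.16 without overlap. Ldha, a lactate dehydrogenase subunit chosen after its values were seen, had 9.495, 14.3 and 35.4 CPM in AA, against 0, 2.73 and 25.6 CPM in in vivo young, and rose by 2.03 ± 0.44. Ogdh, which feeds the citric acid cycle, had 10.9, 21.1 and 34.8 CPM in AA, against 31.97, 46.4 and 65.6 CPM in in vivo young, a change of -0.999 ± 0.19. Tpi1, Ldha, Hsp90ab1 and Hnrnpk have processed copies elsewhere, which makes their counts uncertain. Ldhb, the lactate dehydrogenase subunit abundant in oocytes and picked with its values known, stood at -0.16 ± 0.07 and was not called.

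The lists of this paragraph stand beside 6.09% of all genes that rose and 9.35% that fell. Of 38 proteasome genes 5 rose and 1 fell. The lid subunit Psmd7 had 90.8, 118.3 and 159.9 CPM in AA, against 51.1, 73.1 and 89.9 CPM in in vivo young, a rise of 0.71 ± 0.12 without overlap, and the activator Psme4 was lower at -0.41 ± 0.10. Of 21 cholesterol genes 5 rose and none fell, with the synthesis enzyme Msmo1 at 0.81 ± 0.16. Leaving out 1 library at a time gave 1 to 5 higher cholesterol genes, and 14 of the 20 omissions moved the count by over 1.5 times. Among heat shock and unfolded protein genes 9 of 32 fell and 2 rose. The chaperone Hsp90ab1 had 226.1, 298.1 and 450.1 CPM in AA, against 350.8, 461.7 and 549.4 CPM in in vivo young, a change of -0.57 ± 0.11. The cochaperone Dnajb1 rose by 0.46 ± 0.10. After correction for length and GC content the higher counts were 3 for the proteasome and 3 for cholesterol, and the count of lower heat shock genes was 8. In that fit 5.94% of all genes were higher and 8.42% lower.

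Oxidative phosphorylation is built from mitochondrially and nuclear-encoded subunits. Of 7 tested mitochondrial mRNAs 3 fell and none rose (median -0.86). mt-Nd4, a subunit of complex I, had 6.96, 22.5 and 53.3 CPM in AA, against 25.2, 59.8 and 80.3 CPM in in vivo young, a change of -1.28 ± 0.27. mt-Cytb (-1.42 ± 0.31) and mt-Nd5 (-1.02 ± 0.22), chosen after their values were seen, also fell, whereas mt-Nd1 stood at 0.06 ± 0.32. All 13 mitochondrial mRNAs together made up 0.0654% ± 0.0255 of counts in AA and 0.117% ± 0.0524 in in vivo young (SD, n = 12 and 8; two-sided exact permutation test, p = 0.00524, adjusted p = 0.00699 over 4 measures). The ranges overlapped, at 0.0332% to 0.109% in AA and 0.0686% to 0.199% in in vivo young. The shares averaged 0.130% in AY, 0.115% in YY and 0.106% in in vitro young. All of these shares are small. What part of the mitochondrial mRNA was kept by alignment and counting was not tested. Of 74 tested nuclear genes of oxidative phosphorylation 5 rose and none fell (median 0.07), led by Ndufv1 of complex I at 0.53 ± 0.13. Of all genes 6.09% rose, a share near that of this list, and 9.35% fell. After correction for length and GC content 2 members rose, where 5.94% of all genes rose.

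Lists with few called members are given by their counts, to be read against the 6.09% of all genes that rose and the 9.35% that fell. After correction for length and GC content these shares of all genes were 5.94% and 8.42%. Cytosolic ribosomal proteins had 3 of 53 higher and none lower, with Rpl29 and Rpl7a, both with processed copies, and Rplp0. Mitochondrial ribosomal proteins had 6 of 67 higher and 1 lower, led by Mrpl3 (0.71 ± 0.18) and Mrpl1 (-0.54 ± 0.13), and the higher count was 2 with the pattern as a random block, 3 without in vivo young replicate 8 and 3 after correction for length and GC content. Of the spliceosome 7 of 44 genes rose and 4 fell, with Hnrnpk at 0.54 ± 0.10 and Srrm2 at -1.23 ± 0.18. Of the nuclear pore 4 of 26 fell, led by the E3 SUMO ligase Ranbp2 (-1.73 ± 0.24), and none rose, whereas after correction for length and GC content 3 were lower and 3 higher. Of DNA repair 5 of 44 fell and 2 rose, with the recombination factor Brca1 at -1.05 ± 0.17. Of maternal mRNA decay 4 of 31 fell and 3 rose, with the deadenylation partner Tob2 at -0.63 ± 0.14 and the deadenylase Cnot8 at 0.53 ± 0.12. Mitochondrial dynamics had 3 of 23 higher, led by Bnip3 (0.59 ± 0.17), and 1 lower, the protease Lonp1 (-0.63 ± 0.19). Its higher count was 1 with the pattern as a random block, 1 after that correction and 1 to 3 without 1 library, moving by over 1.5 times in 9 of 20 omissions. Autophagy had 2 of 25 higher, led by Map1lc3b (0.31 ± 0.10), and 2 lower, led by Rb1cc1 (-0.61 ± 0.16). Its higher count was 0 to 2 without 1 library, changing in 15 of 20 omissions, and Map1lc3b lost its call in 14.

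The small RNA pathway had 1 of 16 higher, Tdrd12 (0.24 ± 0.08), and 3 lower, led by Gtsf1 (-0.43 ± 0.09). Apoptosis genes had 1 of 12 higher, Birc3 (0.34 ± 0.08), and 1 lower, Birc6 (-1.12 ± 0.19), both of which encode inhibitors of apoptosis proteins. Antioxidant genes had 1 of 23 lower, Txnip (-0.30 ± 0.08), an inhibitor of thioredoxin, and none higher. Imprinted genes had 2 of 12 higher, led by Nap1l5, and 1 lower, Trappc9 (-1.01 ± 0.27), and the higher count was 1 in 12 of 20 omissions of a library. Of 3 tested immediate-early genes none was called, and most of that list fell below the filter.

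The list of granulosa and cumulus markers holds 18 genes, of which 5 passed the filter on low counts and 3 rose in AA. The members that passed may have done so through the group where they are high. Gja1, the connexin of granulosa gap junctions, had 7.71, 19.6 and 117 CPM in AA, against 0, 2.47 and 6.97 CPM in in vivo young, a rise of 3.26 ± 0.64 without overlap, although its highest AA value stood far above the other 11, and the change was 2.73 without that library, AA replicate 12. Inha, the inhibin alpha subunit, had 7.95, 39.4 and 127.9 CPM in AA, against 0, 5.41 and 44.2 CPM in in vivo young, and rose by 2.88 ± 0.68. Serpine2, with at least 390.7 CPM in each of the 20 libraries, rose by 0.52 ± 0.14. Cyp19a1 (0.37 ± 0.30) and Nr5a2 (-0.10 ± 0.17) were not called, and the defining markers Amh and Ptx3 were at 0 in all 20 libraries. Of the markers below the filter, Inhba had counts in 12 of 12 AA and 2 of 8 in vivo young libraries (103 and 4 counts in all). Hsd17b1 had 77 counts in AA and 11 in in vivo young, Inhbb 45 and 2, and Fst 10 and 0, whereas Kitl had 19 in AA and 33 in in vivo young.

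Summed over the list, these markers gave 1039 ± 182 CPM in AA (718.7 to 1350) and 691 ± 169 CPM in in vivo young (457.3 to 1002; SD, n = 12 and 8). The difference of the log2 sums was 0.60 (two-sided exact permutation test, p = 0.00054, adjusted p = 0.00108 over 4 measures), and without Serpine2 the sums were 166.1 ± 83.8 CPM in AA and 79.4 ± 27.8 CPM in in vivo young. AY averaged 1183 CPM, YY 687.1 CPM and in vitro young 718.8 CPM. More granulosa material on the oocyte and more marker RNA per cell cannot be told apart in these libraries. In the same libraries 7 of 12 oocyte markers were lower and none higher in AA, where 9.35% of all genes were lower and 6.09% higher. Several of them, such as Zp1, Zp2, Zp3 and Nlrp5, are also counted in the lists above. Against YY 3 of the 12 were higher and 1 lower, where 12% and 14% of all genes were. The sums of the oocyte markers were 15551 to 22122 CPM in AA and 20394 to 31213 CPM in in vivo young. Theca and stroma markers had no tested member, and their sums were 0 to 10.0 CPM in AA and 0 to 9.25 CPM in in vivo young. Immune markers summed to 8.77 to 32.1 CPM in AA and 14.7 to 35.3 CPM in in vivo young, and endothelium and blood markers to 65.6 to 137.7 CPM in AA and 25.5 to 89.9 CPM in in vivo young, with no tested member of either called. The part of granulosa RNA in the other changes was not tested.

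Of 16 tested genes of oocyte-somatic communication and cell junctions 7 fell and 2, Gja1 and Daam1, rose (median -0.37). The shares of all genes were 9.35% lower and 6.09% higher. Beside Kit, the cadherins Cdh1 (-0.61 ± 0.12) and Cdh2 (-0.79 ± 0.25), the integrin Itgb1 (-0.82 ± 0.22) and the Notch ligand Jag1 (-0.53 ± 0.09) fell, all chosen after their values were seen. Without in vivo young replicate 8, and with the pattern as a random block, 4 members were lower.

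**Figure D4:**
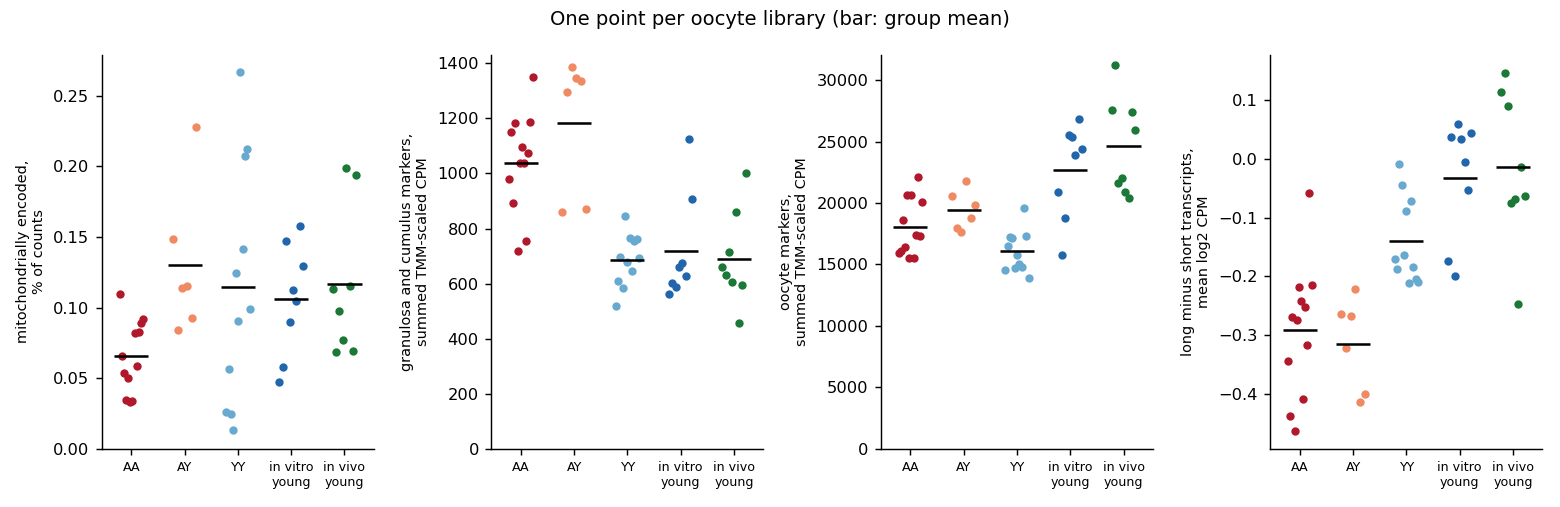
Each point is 1 oocyte library, with AA leftmost, in vivo young rightmost and a bar at each group mean. The panels show the share of counts from mitochondrial mRNAs in %, the summed TMM-scaled CPM of granulosa and cumulus markers and of oocyte markers, and the mean log2 CPM of transcripts of at least 6 kb minus that of transcripts under 1.5 kb. AA averages 0.0654%, 1039 CPM, 18020 CPM and -0.29, and in vivo young 0.117%, 691 CPM, 24630 CPM and -0.01.

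Genes with long transcripts were called lower in AA at a higher rate than those with short ones. A length was found for 7565 of the 7573 tested genes, as that of the longest coding transcript in GENCODE M21. Of 968 genes with transcripts of 6 kb or over, 24.6% were lower and 2.89% higher in AA. Of 867 genes between 1.5 and 2 kb, 5.65% were lower and 11.2% higher. The median log2 change was -0.21 in the longest class and 0.10 between 1.5 and 2 kb, and in transcripts under 1 kb it was 0.008, with 3.38% lower and 2.1% higher. In each library the mean log2 CPM of transcripts of at least 6 kb was set against that of transcripts under 1.5 kb, a measure chosen after seeing the data. This difference averaged -0.29 ± 0.11 in AA and -0.01 ± 0.13 in in vivo young (SD, n = 12 and 8; two-sided exact permutation test, p = 0.000159, adjusted p = 0.000635 over 4 measures). It ranged from -0.46 to -0.06 in AA and from -0.25 to 0.15 in in vivo young. AY averaged -0.31, YY -0.14 and in vitro young -0.03.

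**Figure D5:**
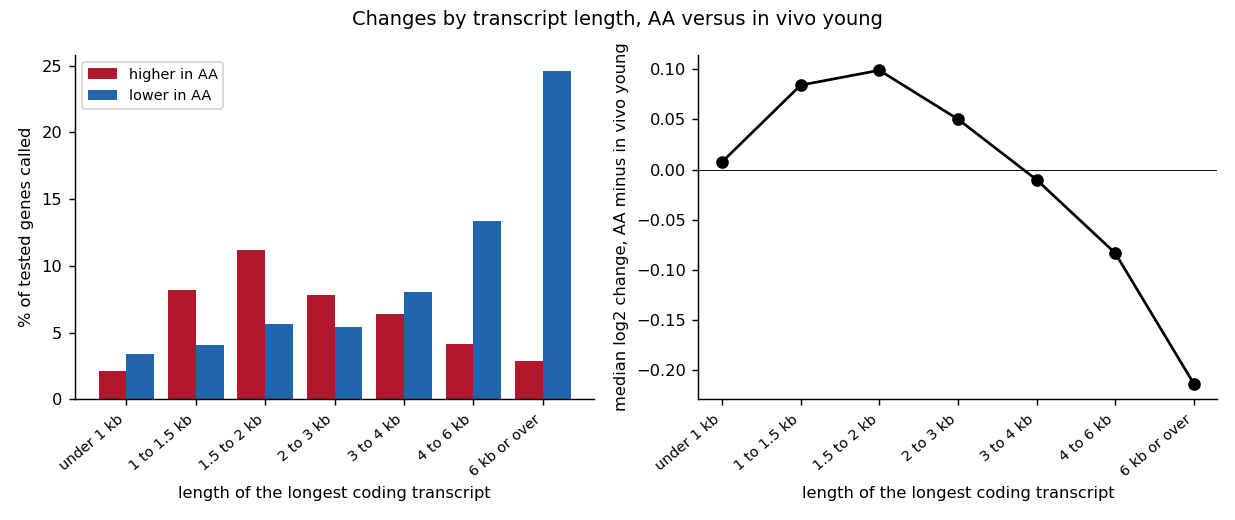
Left, the share of tested genes called higher (red) and lower (blue) in AA than in in vivo young, in 7 classes of transcript length. Right, the median log2 change, AA minus in vivo young, in the same classes. The share lower in AA is 3.38% under 1 kb and 24.6% at 6 kb or over.

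After correction of each library for transcript length and GC content, 1086 genes were called, 449 higher and 637 lower, and 852 of them were among the 1169 called without it. Genes with transcripts of 6 kb or over, such as Cltc (-1.15), Cenpf (-0.75), Kmt2c (-0.71) and Itpr1 (-1.09), kept their direction and their call in that fit. So did genes with shorter transcripts, such as Padi6 (-1.19), Mapk3 (-1.15) and Zp3 (-0.64). Among the called genes named here the call was lost for Zfp57, Psme4, Map1lc3b, Rb1cc1, Tet3, Foxo3, Mau2 and Smc2. RNA integrity was not measured in the files used here, and the part of transcript length in single changes was not tested further.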

How the data were processed

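Single oocytes were lysed, and cDNA was made and amplified with a low-input NEBNext kit without molecular identifiers, per the labels' protocols. The deposited values are raw read counts per gene; STAR 2.7.8a, HTSeq 0.11.0 and the mm39 build are named per the submitters' processing notes, and strandedness is not given in those sources. Members and gene lists were chosen with earlier results of these data known.

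Groups were taken from the titles. Genes were kept by filterByExpr (minimum count 10, minimum total 15), and AA was tested against in vivo young in edgeR 4.0.16 (R 4.3.3; TMM, robust quasi-likelihood, Benjamini-Hochberg adjustment, adjusted p under 0.05), with limma 3.58.1 and DESeq2 1.42.0 as alternatives. AA was compared with YY and in vitro young in 1 edgeR fit of all 45 libraries. Measures with 1 value per library had exact permutation tests over all 125970 splits.

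Named genes were, in each direction, the 10 with the smallest p among called genes with a log2 change of at least 1, a mean of at least 10 CPM in the higher group and 5 counts or more in a 0.75 share of that group, without predicted, clone-derived and pseudogene models. Added to them were the called member of each list with the smallest p per direction and every cell type marker. Some genes that meet the rule are not reported here. Others are said to be chosen after their values were seen. The 34 lists hold 1223 entries, of which 1219 matched a gene in the files, and 5 marker lists hold 70.

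In 11 genes, called all-or-nothing here, the libraries of the series fell into a low and a high set with a gap of at least 3 log2 units between them and at least 3 libraries on each side. The low set was not always at 0 and reached 14.61 CPM for Mtfr2. These genes split the 12 AA libraries into patterns of 9 and 3 and the 8 in vivo young libraries into patterns of 2, 4 and 2. The labels do not say whether libraries of a pattern share an animal. No 2 libraries of a group agreed within sampling noise (chi-square over its degrees of freedom was at least 1.98 in 94 pairs).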

Additional observations from a re-analysis of the deposited data

Results flagged for a closer look

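The gap test for a single library far from the others was run in in vivo young only, since AA, with 12 libraries, is above the size the test covers. Of 80 gene and library measures examined there, 3 held such a library, and chance gives about 1 in 20. Nap1l5 was at 23.23 CPM in in vivo young replicate 5, against a group median of 1.676 CPM. Inha, the inhibin alpha subunit made by granulosa cells, was at 44.15 CPM in the same library, against a group median of 5.409 CPM. Gtsf1, a piRNA pathway factor, was at 1647 CPM in in vivo young replicate 6, against a group median of 1072 CPM.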

How the results depend on the processing

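The number of called genes, 1169, was 1007 to 1194 when 1 library was left out (higher 364 to 496, lower 627 to 718), lowest without in vivo young replicate 6. It was 489 against S17 and S18 alone (142 higher, 347 lower) and 43 with the libraries of a pattern summed (7 higher, 36 lower; 1532 genes at an unadjusted p under 0.05), which leave fewer samples. With the replicate number as a block 773 were called (35.6% of them higher, 498 lower). Correlations of same-numbered libraries ran from -0.102 to 0.115, and 1 of 8 was over 0.1. Whether libraries of the same number share a day or a batch cannot be told from these correlations. Called list members numbered 83 against S17 and S18 alone and 12 in the sums. The difference in genes detected was -9.08 against S71 to S77 alone, -576 over all reads, -109 at 5 reads or more and -22.4 to 39.6 without 1 library. Without 1 library, the mitochondrial difference ran from -0.0582 to -0.0396 percentage points, the granulosa difference from 0.522 to 0.683 and the long minus short difference from -0.310 to -0.254. Mrpl1 stood at 0.128 against S17 and S18 alone; the cause was not tested. Of the 75 called genes among those named, 19 were called in the sums, 42 against S17 and S18 alone, 67 against S71 to S77 alone and 64 with the block, while all 75 were called by DESeq2, RLE factors, voom and a stricter filter. Few libraries per pattern limit what the sums can show.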
